A study of Papio anubis with 588 samples.

Results

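The measurement described here is how well the expression of a gene in the liver of a baboon at 2 years could be ranked from its liver expression at 0 years. It used the 84 animals with a liver library at both times after the authors' quality control, giving 168 of the 570 libraries that passed it. For each gene, the level at 2 years was correlated with the level at 0 years across the 84 animals, and this Spearman correlation (rho) is called repeatability below. A gene is repeatable when animals that ranked high at 0 years also ranked high at 2 years, whatever the change of the average. Of the 34178 genes in the table, the 9896 with a mean of at least 5 CPM, the usual scaling of a count by the total of its library, in these libraries were correlated. MICU3 (5.002 CPM) lay just inside this limit and ZUP1 (4.997 CPM) just outside.

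The series holds liver, muscle and adipose tissue biopsies of 99 baboons kept in captivity (Papio anubis, the olive baboon), monkeys whose lipoproteins include lipoprotein(a), as in humans. The HCHF libraries were taken after 2 years on a diet high in cholesterol and fat, and the LCLF libraries at 0 years on a diet low in both. All animals changed diet and were 2 years older at the second biopsy, so diet, age and calendar time cannot be told apart in any HCHF against LCLF difference. The total count per library ranged from 8.16 to 38.46 M (mega-counts) over the 84 HCHF livers, with a median of 20.92 M, and from 6.59 to 32.7 M over the 84 LCLF livers, with a median of 19.49 M. Per the labels' protocols, libraries were made in a pair of batches with different kits and read types, and all libraries of an animal shared their RNA extraction, library and sequencing batches. The labels do not say which extraction batch an animal was in, so what repeated with the animal and what repeated with its extraction batch cannot be told apart. Of the 84 animals, 13 were in library batch 1 and 71 in batch 2, and levels were centred within time and library batch before they were correlated.

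The liver is made up mostly of hepatocytes, which secrete most plasma proteins and lipoproteins, make bile acids and detoxify foreign compounds. Some of its transcripts follow meals, stress hormones and the daily clock within hours. Others are known to differ between individuals for years, for example with the number of gene copies or with regulatory alleles. Repeated biopsies of the same animals show for which genes the order of animals at one time returns at the other.

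Some libraries stood apart. RPL9, a protein of the large ribosomal subunit, was below 10 CPM in 8 of 13 HCHF and 7 of 13 LCLF liver libraries of batch 1, where the highest of these values were 2.60 and 1.69 CPM. In batch 2 the lowest RPL9 level was 199 CPM in HCHF and 163 CPM in LCLF livers. Of the 13 animals in batch 1, 4 had such a library at both times, 7 at one time and 2 at neither. In muscle, 10 of 16 batch 1 libraries at each time had the same low level. Values in batch 2 alone are therefore given beside the results they touch. Liver libraries also held transcripts of other tissues in some animals. The summed level of 7 skeletal muscle markers had a median of 1.67 CPM and a highest value of 2403 CPM in HCHF livers, and a median of 2.27 and a highest value of 4307 CPM in LCLF livers. That of 8 adipocyte markers had a median of 31.0 CPM and a highest value of 2292 CPM in HCHF livers, against 30.5 and 65.1 CPM in LCLF livers. Hepatocyte markers summed to at least 53984 CPM in every HCHF liver and 150804 CPM in every LCLF liver, so all libraries carried a liver profile. The lowest of these values came from a batch 1 animal whose HCHF library had 8744 CPM of ALB, albumin, against 134222 CPM in its LCLF library. Leaving out 20 animals with an extreme score of hepatocyte, adipocyte, muscle or mesothelium markers gave 7471 repeatable genes of 9825 over 64 animals.

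Most of the liver transcriptome kept some of the order of animals over the 2 years. Of 9896 genes, 8844 (89.4%) had a positive rho past an adjusted p of 0.05, by a two-sided permutation test of animals within library batch with Benjamini-Hochberg adjustment. In the negative direction the count was 0 (0.0%), with 0 at an unadjusted p under 0.05, and Pearson's correlation gave 9040 positive genes and 0 negative ones. The median rho was 0.399, the quartiles were 0.302 and 0.4996, and the range was from -0.163 to 0.964. Thus a correlation above 0 was the rule, but a strong one was not: 400 genes had a rho above 0.7, 191 had one below 0.1 and 24 had one below 0. In batch 2 alone 8430 of 9863 genes (85.5%) were repeatable, with a median rho of 0.403. In batch 1 alone, with 13 animals, the median rho was 0.401 and 613 of 10028 genes passed. Levels were not centred within sex. With the level of Y-linked genes removed from each time, 8589 of 9896 genes passed and the median rho was 0.383.

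**Figure D1:**
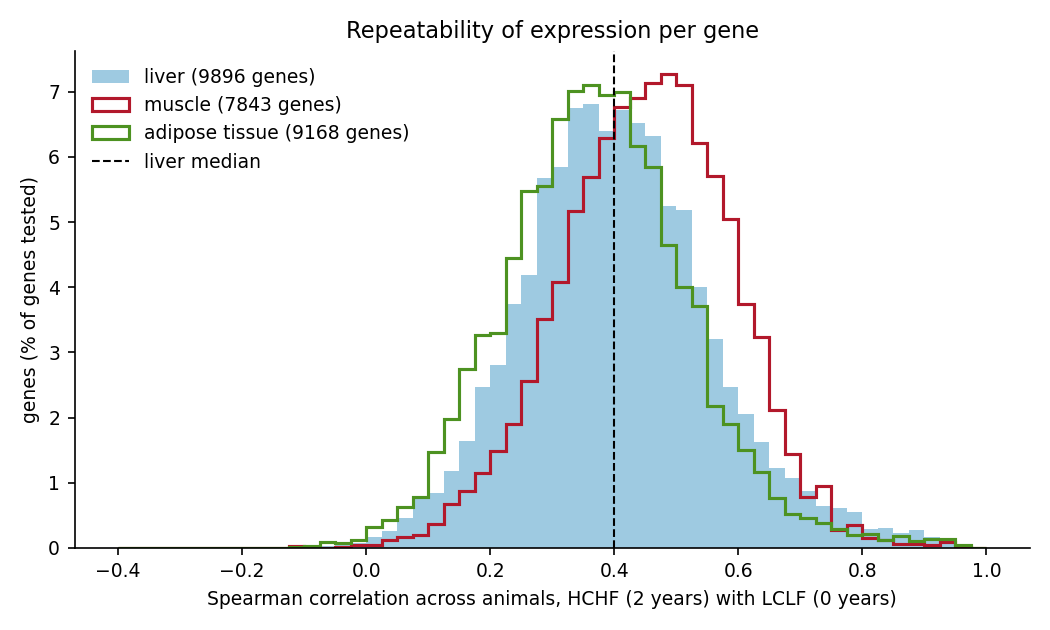
The horizontal axis gives the Spearman correlation across animals of HCHF (2 years) with LCLF (0 years) levels, and the vertical axis the percentage of genes, for genes tested in liver (filled, median 0.399, dashed) and the same genes where they were tested in muscle (median 0.457) and adipose tissue (median 0.370). In all 3 tissues most genes lie well above 0, and few reach 0.7.

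Whole profiles also repeated with the animal. The correlation, across genes, of an animal's HCHF liver profile with its own LCLF profile had a median of 0.549 and ranged from 0.112 to 0.829 over the 84 animals. Against the LCLF profiles of other animals of the same batch the median was -0.0141, with a range from -0.454 to 0.649. Centring each gene across animals holds this median near 0, and the ranges of own and other profiles overlap. The best match of an animal's HCHF profile among the 84 LCLF profiles was its own in 73 animals, and the best match of its LCLF profile among the 84 HCHF profiles was its own in 71. These counts are a description, since genes are not independent of each other. After the scores of 7 cell type marker lists were removed from each time, they were 79 and 72.

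The most repeatable genes on which animals did not fall into separate clusters, as defined further on, included several with large and graded differences between animals. SOAT2, the enzyme that esterifies cholesterol in hepatocytes and intestine, ranged from 0.686 CPM through a median of 16.8 to 169 CPM in HCHF livers, and from 1.11 through 14.6 to 152 CPM in LCLF livers. The spread between animals is wide at either time and the groups overlap throughout, yet animals kept their place (rho = 0.912, Pearson's r = 0.908). The animal farthest from the line of equal values was the one with the low albumin level, at 1.62 CPM in its HCHF and 49.0 CPM in its LCLF liver. FUT2, the fucosyltransferase behind secretor status in humans, had 0, 4.92 and 36.9 CPM as its lowest, median and highest values in HCHF livers and 0, 4.61 and 30.0 CPM in LCLF livers (rho = 0.923, r = 0.947). It was at 0 in 7 HCHF and 8 LCLF livers, in 6 animals at both times. Its largest gap between neighbouring animals was 1.32 on the log2 scale in HCHF livers but 0.61 in LCLF livers, so it met the definition of clusters in HCHF livers only. LPA, which encodes the apolipoprotein(a) of lipoprotein(a), spanned 12.4, 154 and 442 CPM in HCHF livers and 32.2, 177 and 547 CPM in LCLF livers (rho = 0.899, r = 0.879). Its lowest HCHF value came from the animal with the low albumin level, which had 40.3 CPM in its LCLF liver. All animals expressed LPA at both times, and the animals high in one biopsy were high in the other. LPA shares near-identical repeats with related genes, so how the authors' counting split such reads is uncertain.

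These values held within each batch and without extreme animals. In batch 2 rho was 0.948 for SOAT2, 0.941 for FUT2 and 0.898 for LPA, and in batch 1 it was 0.659, 0.819 and 0.912 in that order of genes. Without the 2 animals farthest from the median LCLF level r was 0.9002 for SOAT2, 0.942 for FUT2 and 0.873 for LPA. Each had p = 1e-05, the smallest that 100000 permutations can give, and an adjusted p of 3.38e-05. With the marker scores of 7 cell types removed rho was 0.816 for SOAT2, 0.797 for FUT2 and 0.794 for LPA.

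**Figure D2:**
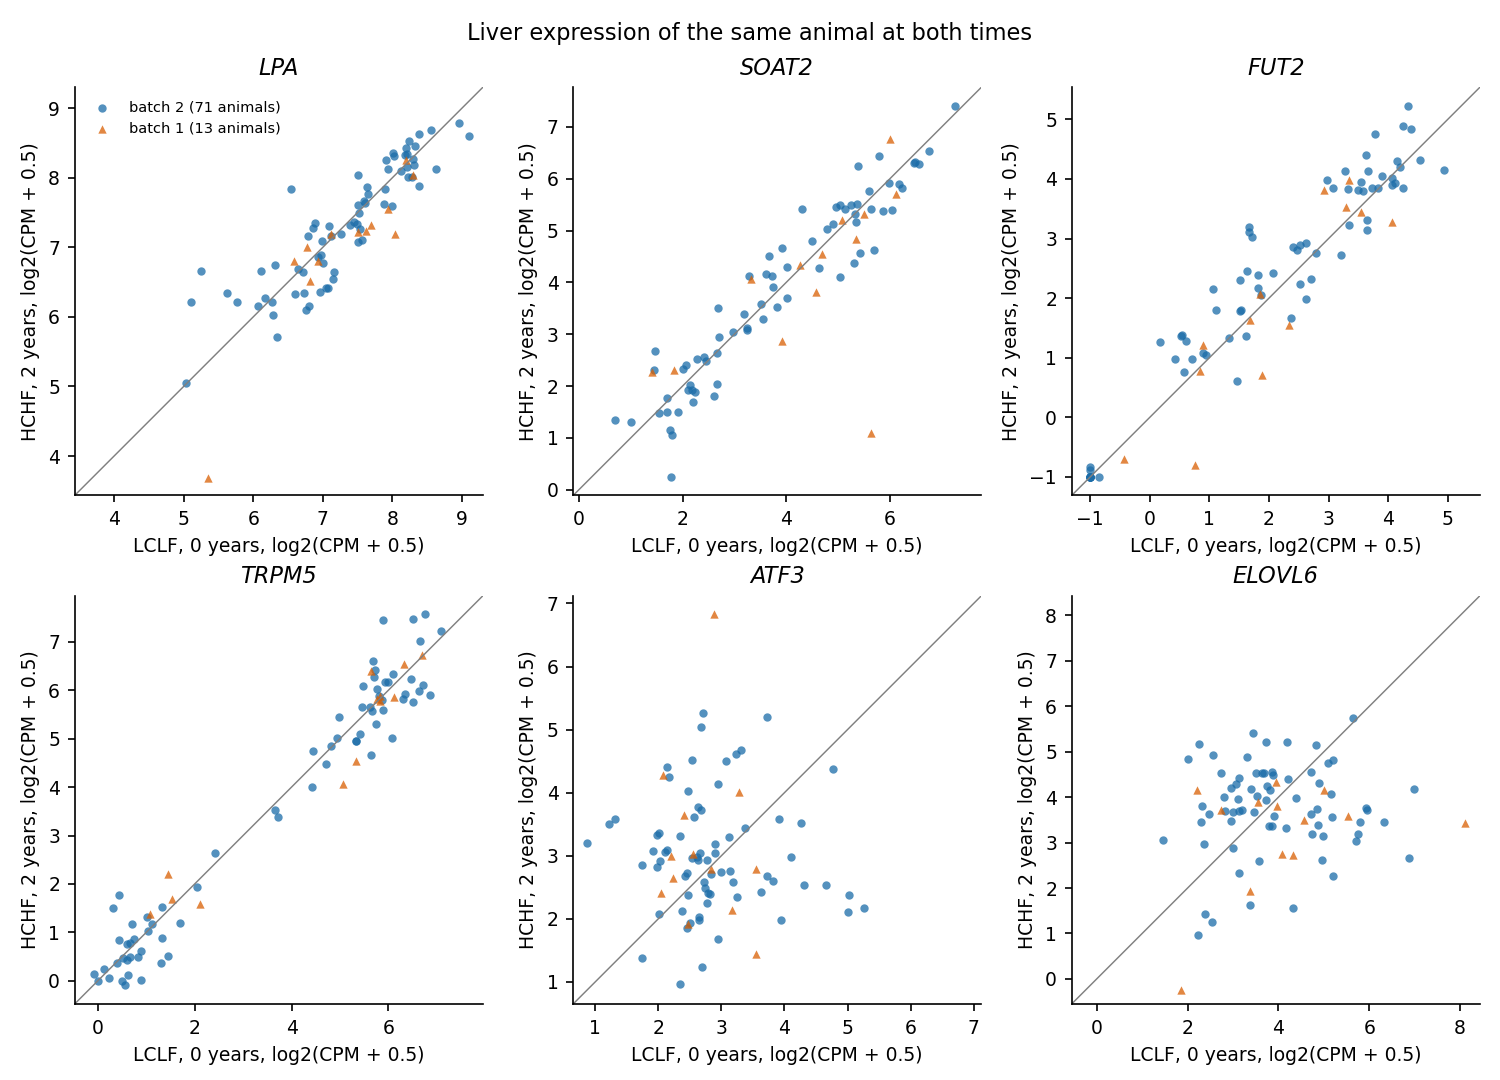
Each point is 1 of 84 animals, placed by its liver level at 0 years on LCLF (horizontal) and at 2 years on HCHF (vertical), both as log2(CPM + 0.5), with library batch by colour and shape and the line of equal values in grey. LPA, SOAT2, FUT2 and TRPM5, the last with few animals between high and low levels, follow the line (rho of 0.899, 0.912, 0.923 and 0.929), whereas ATF3 and ELOVL6 form clouds (rho of -0.0703 and 0.0212).

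The highest rho among genes with a symbol and no clusters belonged to TRPM5, a cation channel known from taste cells, at 0.929 (r = 0.977). Its level was 0.435, 25.5 and 189 CPM at the lowest, median and highest in HCHF livers and 0.451, 30.7 and 135 CPM in LCLF livers. Few animals had intermediate TRPM5 levels, and the largest gap between neighbouring animals was 0.73 on the log2 scale in HCHF livers and 1.24 in LCLF livers, so the gene missed the definition of clusters, and its rho rests in part on the step between high and low animals. SEZ6L2, a membrane protein known from neurons, followed at 0.928, with medians of 5.21 CPM in HCHF and 2.15 CPM in LCLF livers. NAT8, an acetyltransferase of detoxified cysteine conjugates, had a rho of 0.920, and KRT23, a type I keratin, 0.912. The next were NDRG4 (0.910), CBLN3, a cerebellin (0.906), STX3, a syntaxin of apical membrane fusion (0.904), ASPHD1 (0.898), OLFM2 (0.897), FAM177A1 (0.896), RORA, a nuclear receptor of the clock (0.895), and CERKL, a ceramide kinase-like protein (0.895). Among these genes the lowest rho within batch 2 was 0.875 (STX3) and that within batch 1 was 0.577 (CERKL). All had an adjusted p of 3.38e-05 by the permutation test. Several are better known from other organs than from liver.

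On some genes the animals fell into separate clusters, and for these no correlation over all animals is given. A gap of at least 1 on the log2(CPM + 0.5) scale with at least 6 animals on each side at both times was found for 78 genes. In 55 of them the smaller side held batch 1 animals alone, and 24 of the 78 are among the cytosolic ribosomal protein genes listed. Of the other 23, 8 split the animals as the Y-linked gene DDX3Y did, with 50 animals on the upper side and 34 on the lower side at both times, and 1 split them in reverse. The 8 include the Y-linked genes RPS4Y1, ZFY, USP9Y and KDM5D, and 0 of 84 animals changed side on any of the 5 named, which checks that the paired libraries come from the same animals as far as this split can show. Within the 50 animals on the upper side, the rho was 0.48 for RPS4Y1, 0.44 for ZFY, 0.32 for USP9Y, 0.31 for DDX3Y and 0.41 for KDM5D.

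The remaining 14 genes split the animals in other ways. HKDC1, a hexokinase family member, was on the upper side in 30 animals and on the lower side in 53 at both times, with 1 animal that changed side. Its median level on the upper side was 13.1 CPM in HCHF and 12.5 CPM in LCLF livers, and on the lower side 0.34 and 0.37 CPM. Animals thus either expressed the gene or nearly lacked its transcript, and all but 1 stayed so. The 1 that did not was the batch 1 animal with the low albumin level, at 1.09 CPM in its HCHF and 8.79 CPM in its LCLF liver. Within the upper side the levels were graded too, with a rho of 0.85. OPRPN, whose human counterpart encodes a peptide of saliva, had 61 animals on the upper side (medians of 18.4 CPM in HCHF and 17.4 CPM in LCLF livers, rho within the side 0.88), 21 on the lower side with medians of 0 CPM, and 2 that changed side. UNC5D, a netrin receptor, had 77 on the upper side, 6 on the lower side and 1 that changed.

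**Figure D3:**
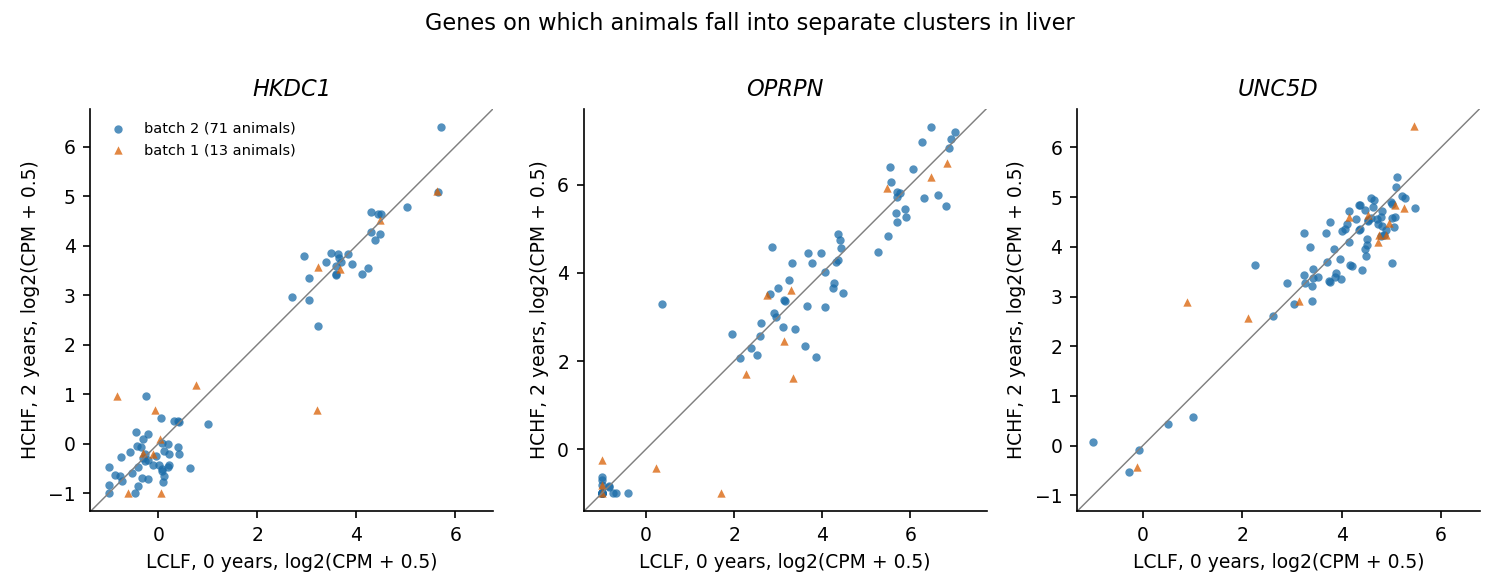
Each point is 1 of 84 animals, placed by its liver level at 0 years on LCLF (horizontal) and at 2 years on HCHF (vertical), both as log2(CPM + 0.5), with library batch by colour and shape and the line of equal values in grey. The animals form an upper and a lower cluster on HKDC1 (30 and 53 animals), OPRPN (61 and 21) and UNC5D (77 and 6), and few points lie off these clusters.

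At the other end were genes that differed between animals at each time but whose order at 0 years was not shown to carry to 2 years. Among 2147 genes with an SD above the upper quartile at both times, the lowest rho belonged to DPYSL3, a cytoskeletal regulator, at -0.118 (adjusted p = 0.286 by the permutation test). KLF2, a flow-responsive transcription factor of endothelium, had 2.51, 6.27 and 27.0 CPM at the lowest, median and highest in HCHF livers and 1.35, 4.27 and 19.2 CPM in LCLF livers, with a rho of -0.0846 (adjusted p = 0.452). ATF3, an immediate early transcription factor of stress, had 1.46, 7.10 and 113 CPM in HCHF livers and 1.33, 5.95 and 37.7 CPM in LCLF livers, with a rho of -0.0703 (adjusted p = 0.532). These ranges are as wide as those of many repeatable genes, but high values at one time did not go with high values at the other. The highest HCHF value of ATF3 came from the batch 1 animal with the low albumin level, and the next was 37.7 CPM. ELOVL6, the elongase of 16-carbon fatty acids, had 0.339, 12.7 and 52.6 CPM in HCHF livers and 2.23, 13.1 and 274 CPM in LCLF livers (rho = 0.0212, adjusted p = 0.851). Its lowest HCHF value came from the animal with the low albumin level too. SYBU had a rho of -0.0377 and HTRA1, a secreted protease, one of 0.0166. On ILF2, an RNA-binding protein, batch 1 animals formed a cluster, and its rho in batch 2 was -0.0418.

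Muscle genes made up 4 of the 12 genes so chosen. TNNT3, the fast skeletal troponin T, had a median of 0.138 CPM and a highest value of 264 CPM in HCHF livers, and a median of 0.203 and a highest value of 492 CPM in LCLF livers. MYH2, a fast myosin heavy chain, had medians of 0.0610 and 0.0601 CPM and highest values of 167 and 497 CPM in HCHF and LCLF livers. Most livers thus had almost no such transcript and a few had much, and the order at 0 years was not shown to carry to 2 years, with a rho of -0.0289 for TNNT3 and -0.0112 for MYH2. Pearson's r was 0.363 for TNNT3 and 0.326 for MYH2, and without the 2 farthest animals it was 0.0202 and -0.0755, so the Pearson value rests on those animals. DES, the intermediate filament of muscle, and PGM5, a protein of muscle adhesion sites, had a rho of -0.0174 and -0.0244. Of the 7 skeletal muscle markers tested in liver, 1 (CKM, rho = 0.281) was repeatable, against 89.4% of all genes, and their median rho was 0.0947. CKM had medians of 0.0957 and 0.208 CPM in HCHF and LCLF livers. Its Pearson's r was 0.323, and 0.00452 without the 2 farthest animals. The 7 markers summed to medians of 1.67 and 2.27 CPM, so their ranks rest mostly on values near 0 and the count of 1 is a description. The part that muscle carried along in a biopsy has in these values was not tested.

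Genes of detoxification had medians above that of all genes, while their share of repeatable genes was near the background. Of 21 glutathione, glucuronosyl and sulfotransferase genes 20 passed, with a median rho of 0.502, and of 26 other detoxifying enzymes 25 passed, with a median of 0.514, beside 89.4% and 0.399 over all genes. UGT3A1, a glycosyltransferase, had 97.0, 278 and 538 CPM at the lowest, median and highest in HCHF livers and 141, 291 and 683 CPM in LCLF livers, and a rho of 0.850. FMO1, a flavin-containing monooxygenase, had a rho of 0.821 with medians of 40.2 CPM in HCHF and 38.5 CPM in LCLF livers. XDH, which makes uric acid, had a rho of 0.769, BPHL, a hydrolase, 0.803, and GSTM4, a glutathione transferase, 0.693. The one member of each list that did not pass was GSTP1 (rho = 0.195, adjusted p = 0.107 by the permutation test) and EPHX1, the microsomal epoxide hydrolase (rho = 0.144, adjusted p = 0.191). The EPHX1 medians were 2667 CPM in HCHF and 2892 CPM in LCLF livers, and counting error would give 0.0289% of the variance between animals. Only 1 of 31 listed cytochrome P450 genes, CYP2C8, was tested (rho = 0.238), and the others were not analysed here. Genes of these families share sequence, and how reads were split among them is uncertain.

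Lipid genes ranged from very high to no measurable repeatability. Of 26 apolipoprotein and lipoprotein genes 25 passed, with a median rho of 0.480, beside 89.4% and 0.399 over all genes. APOE and APOA1, the main proteins of remnants and of high density lipoprotein, had a rho of 0.577 and 0.504. PLTP, the phospholipid transfer protein, was the list's one gene that did not pass (rho = 0.182, adjusted p = 0.105 by the permutation test).

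All 19 tested genes of cholesterol synthesis passed, beside 89.4% of all genes, but the median rho was 0.341, beside 0.399, and the range ran from 0.239 for FDFT1, the squalene synthase, to 0.550 for SC5D, a late-step desaturase. SC5D had 83.8, 201 and 437 CPM at the lowest, median and highest in HCHF livers and 82.0, 262 and 594 CPM in LCLF livers. Of 17 lipogenic genes 12 passed, below that background, with a median rho of 0.288, from ELOVL6 at the bottom to TMEM97 at 0.567. The fatty acid desaturases FADS1 (0.536) and FADS2 (0.435) passed as well.

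Immune lists differed in their medians. All 29 tested interferon-stimulated genes were repeatable, against 89.4% of all genes, and their median rho was 0.522. MX1, an antiviral GTPase, had 14.1, 62.9 and 248 CPM at the lowest, median and highest in HCHF livers and 11.7, 49.2 and 222 CPM in LCLF livers, with a rho of 0.709. OAS1, which senses double-stranded RNA, had a rho of 0.672 and IFIT2 had the list's lowest at 0.303. All 11 tested antigen presentation genes passed (median 0.446), led by ERAP2, which trims peptides for display, at 0.708. CD14, the co-receptor for bacterial lipopolysaccharide, had 252, 642 and 1349 CPM in HCHF livers and 220, 629 and 1228 CPM in LCLF livers and a rho of 0.767, the highest of 11 macrophage markers, whose median was 0.275 and whose lowest was FCER1G at 0.216. JCHAIN, the joining chain made by plasma cells, had a rho of 0.683.

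Secreted plasma proteins passed in shares near the 89.4% of all genes, with medians above 0.399. Of 41 complement and coagulation genes 39 passed, with a median rho of 0.476, led by F5, coagulation factor V, at 0.717 with a spread from 197 to 717 CPM in HCHF and from 206 to 566 CPM in LCLF livers. MBL2, the mannose-binding lectin, had a rho of 0.657, and C3, the central complement component, 0.518. Of 18 acute phase genes 15 passed, with a median rho of 0.474. CRP, C-reactive protein, had 149, 1941 and 30121 CPM in HCHF livers and 686, 2009 and 12936 CPM in LCLF livers and a rho of 0.505. LBP, which carries lipopolysaccharide, ranged from 8.48 to 2103 CPM in HCHF and from 8.23 to 1179 CPM in LCLF livers, with a rho of 0.540. The fibrinogen chain FGG was lowest, at a rho of 0.139 that did not pass (adjusted p = 0.218). Its Pearson's r was 0.358 and did pass (adjusted p = 0.00221), and without the 2 farthest animals r was 0.203. ALB, albumin, had medians of 129372 CPM in HCHF and 135214 CPM in LCLF livers and a rho of 0.288.

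Lists of genes known to respond within hours had medians below the 0.399 of all genes and smaller shares that passed than the 89.4% of all genes. Of 18 immediate early genes 7 passed, with a median rho of 0.208. FOS had a rho of 0.255 (adjusted p = 0.0230 by the permutation test) and EGR1 0.231 (adjusted p = 0.0411), and both were negative in the 13 animals of batch 1, at -0.390 and -0.170. DUSP1, KLF6 and GADD45B did not pass (0.117, 0.0639 and 0.178). FOSB had the list's highest rho at 0.389, but its medians were 1.73 CPM in HCHF and 1.66 CPM in LCLF livers. It reached a mean of 5 CPM through a single HCHF liver at 1056 CPM, so this rho ranks mostly low values. Of 13 glucocorticoid-responsive genes 8 passed, with a median of 0.237, and FKBP5, a co-chaperone that the hormone induces, had a rho of 0.447, whereas KLF9 had one of 0.0418. Of 14 fasting and gluconeogenic genes 10 passed, with a median of 0.2999. PCK1, the gluconeogenic carboxykinase, had a rho of 0.335 and IGFBP1, a binding protein that insulin represses, 0.223, but ANGPTL4, an inhibitor of lipoprotein lipase, had 0.780.

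The clock genes spread over nearly the whole range. Of 16 tested, 14 passed, a share near the 89.4% of all genes, and their median rho was 0.329. In batch 2 alone 11 of 16 passed, below the 85.5% of all genes there, with a median rho of 0.336. RORA was highest (0.895), followed by CLOCK (0.663) and CRY1 (0.499), with DBP at 0.453 and PER1 at 0.237. NR1D1, the repressor that opposes RORA at shared sites, had 1.89, 5.01 and 42.8 CPM at the lowest, median and highest in HCHF livers and 1.61, 4.42 and 55.7 CPM in LCLF livers, with a rho of 0.0410 (adjusted p = 0.712). The expression of RORA thus repeated across years in the animals, and that of NR1D1 was not shown to.

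**Figure D4:**
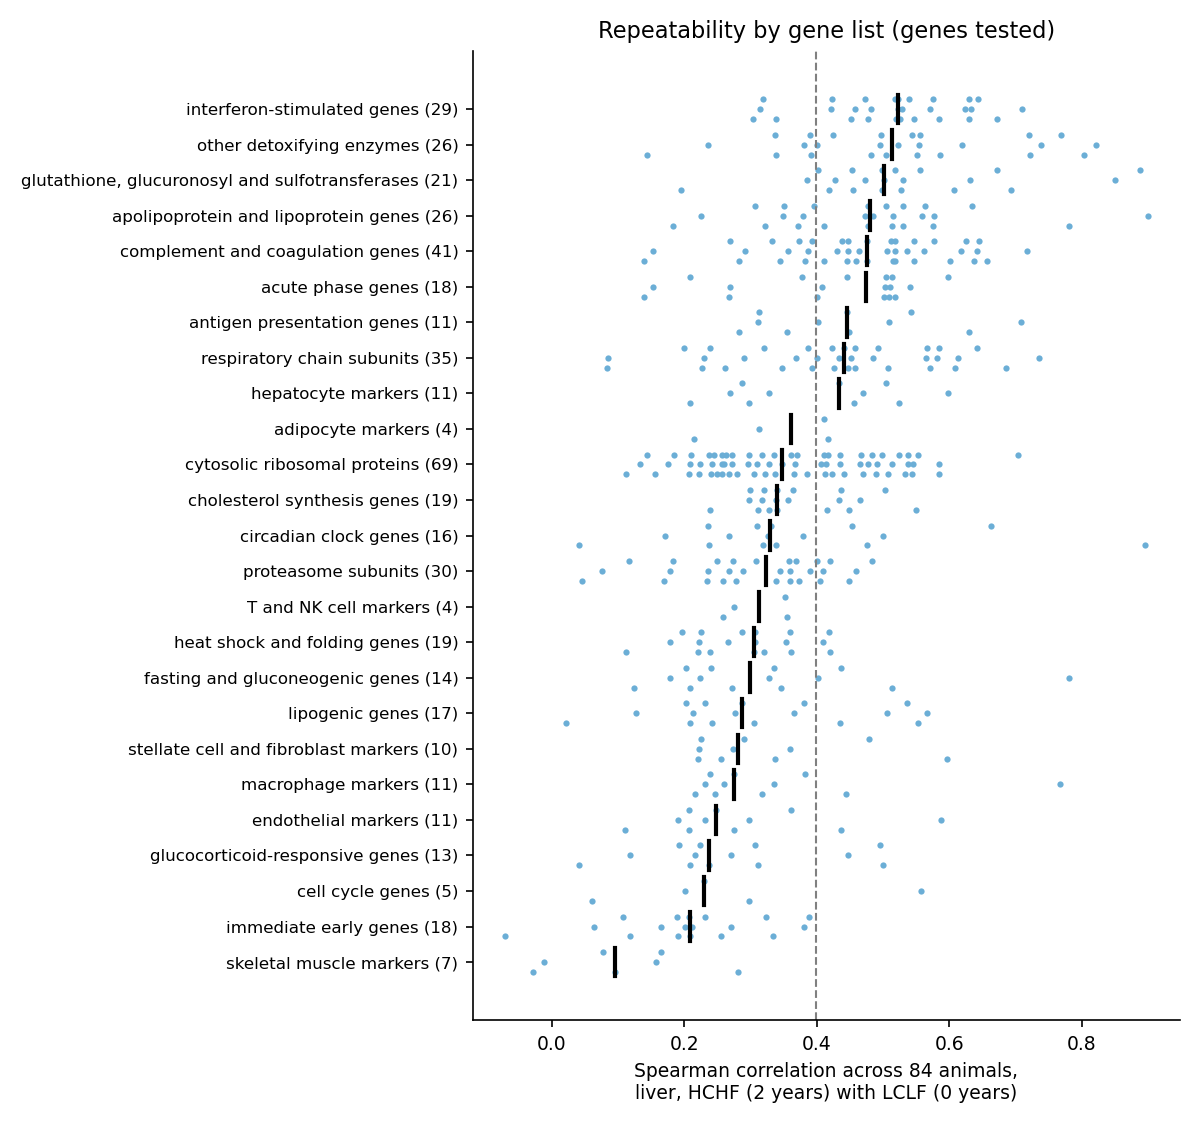
Each point is a gene of the named list with a mean of at least 5 CPM in liver, placed by its Spearman correlation across 84 animals of HCHF with LCLF levels, with the list's median as a black bar and the median of all 9896 genes (0.399) dashed. Lists with at least 4 genes tested are ordered by median, from 0.0947 for the skeletal muscle markers to 0.522 for the interferon-stimulated genes, and the Y-linked genes, on which animals form clusters, are left out.

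Markers of the cell types of the liver varied in repeatability, and in bulk tissue fewer cells of a type and less RNA per cell cannot be told apart. Of 11 hepatocyte markers 10 passed (median rho 0.433), of 10 stellate cell and fibroblast markers 10 (0.281), of 4 T and NK cell markers 4 (0.313), and of 11 endothelial markers 7 (0.249), beside 89.4% and 0.399 over all genes. Among the endothelial genes FCN3, a ficolin, had a rho of 0.587, and PECAM1, an adhesion molecule of all endothelium, one of 0.111 (adjusted p = 0.324). Of 11 macrophage markers 10 passed over all animals (median 0.275) and 5 in batch 2 alone. The macrophage scavenger receptor MARCO had a rho of 0.383, and CD5L, a secreted protein of liver macrophages, 0.444. After the marker scores of 7 cell types were removed from each time, 8582 genes passed and the median rho over all genes was 0.380.

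The values of ribosomal genes moved with the libraries that stood apart, and on 24 of those tested the animals formed clusters. Of 69 tested genes of cytosolic ribosomal proteins 49 passed with a median rho of 0.347, beside 89.4% and 0.399 over all genes. In batch 2 alone 67 of 69 passed, beside 85.5% of all genes there. RPL3 had a rho of 0.272 over all animals, 0.467 in batch 2 and 0.0110 in batch 1. Of 35 respiratory chain subunits 32 passed (median 0.441), a share near the 89.4% of all genes, led by NDUFB3 at 0.735. Of 30 proteasome subunits 24 passed (0.324), a share below it, from PSMC2 at 0.0449 to PSMA7 at 0.483. In batch 2 alone 28 of the 35 respiratory chain subunits and 19 of the 30 proteasome subunits passed.

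The 200 most and the 200 least repeatable genes were then described side by side. The sets ended at a rho of 0.772 (LOC100999246 inside, CYSTM1 outside) and 0.104 (ZNF830 inside, GRIPAP1 outside). The median rho was 0.831 in the most repeatable set and 0.0689 in the least, beside 0.399 over all genes, which their choice fixes. Animals formed clusters on 23 of the most repeatable genes, 1 of the least and 78 of all 9896. The correlations of these genes, the Y-linked ones among them, enter the medians of the sets here and in the other tissues. Genes with provisional LOC names made up 86 of the 200 most repeatable genes (43%), 4 of the least (2%) and 773 of all 9896 (7.81%). Of these 86, the RefSeq annotation of assembly Panubis1.0 lists 52 as protein coding, 24 as lncRNA and 10 as pseudogenes. The median SD between animals, on the log2(CPM + 0.5) scale, was 1.07 in HCHF livers for the most repeatable set, 0.35 for the least and 0.37 for all genes, and 1.07, 0.33 and 0.34 in LCLF livers. The median SD of the change within animals was 0.53, 0.46 and 0.38. These SDs come from the values that chose the sets and are tied to rho by arithmetic, so they are a description. The share of the variance that counting error would give, from the same values, had a median of 0.609% for the most repeatable set, 7.92% for the least and 3.96% for all genes, and the part of depth in the low values of the least repeatable set was not tested.

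The choice carried over to animals it had not used. When the sets were chosen in batch 2 alone and measured in the 13 animals of batch 1, the median rho was 0.780 for the 200 most repeatable genes, 0.291 for the 200 least and 0.401 for all 9831 genes. The rho in batch 1 was above 0 for 200 of the 200 most repeatable genes, 164 of the 200 least and 8860 of all genes. Genes high in one batch were therefore high in the other, whereas those least repeatable in batch 2 lay lower than most genes but mostly above 0.

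The sets were also measured in the other tissues of these animals. In muscle, 72 of the most and 178 of the least repeatable liver genes were expressed at 5 CPM or more, and 70 (97.2%) and 160 (89.9%) of them were repeatable there, beside 96.0% of the 7843 genes tested in both tissues. The median rho in muscle was 0.692 for the most repeatable set, 0.389 for the least and 0.457 for all. In adipose tissue 122 of 128 (95.3%) and 143 of 197 (72.6%) were repeatable, beside 86.8% of 9168, with a median rho of 0.651, 0.303 and 0.370. The order of animals was partly shared between tissues: the LCLF liver level correlated with the HCHF adipose level at a median of 0.493 for the most repeatable set, 0.0679 for the least and 0.195 for all genes. With the HCHF muscle level the medians were 0.465, 0.0223 and 0.0920. The HCHF liver level gave medians of 0.512, 0.0707 and 0.189 with the LCLF adipose level and 0.534, 0.116 and 0.196 with the LCLF muscle level. All libraries of an animal shared their processing batches, so tissue-wide levels of the animal and of its batch cannot be told apart here.

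**Figure D5:**
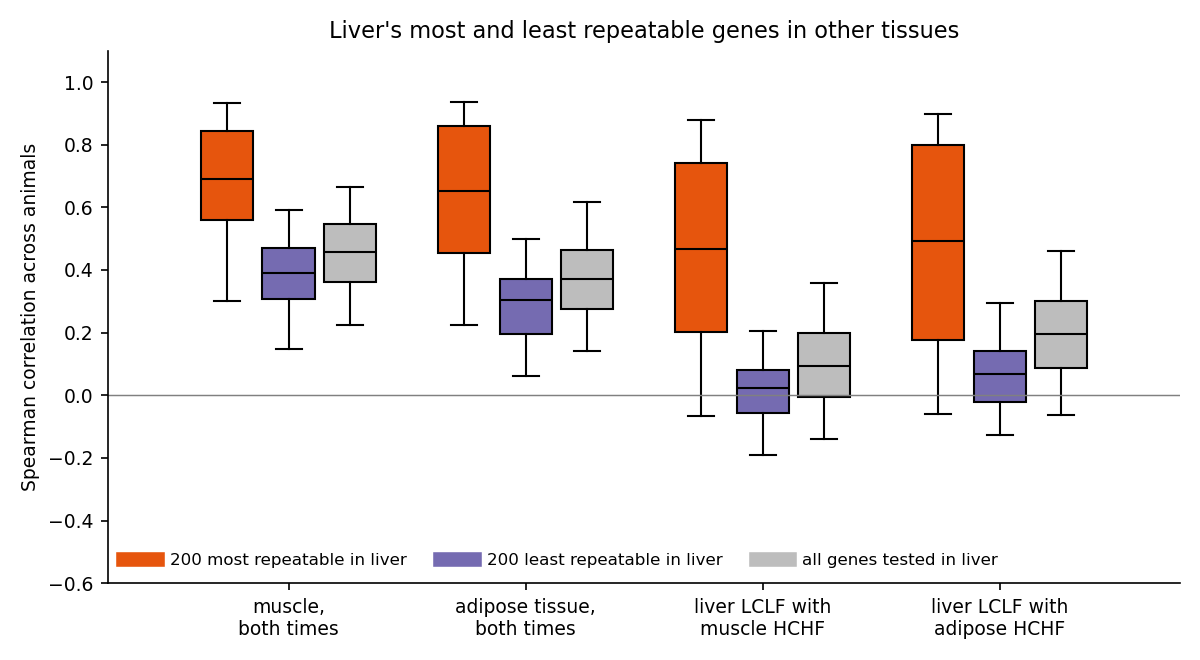
Boxes give the quartiles and median, and whiskers the 5th and 95th percentiles, of the Spearman correlation across animals for the 200 genes most and the 200 least repeatable in liver and for all genes tested in liver, within muscle, within adipose tissue, and from LCLF liver to HCHF muscle or adipose tissue. The most repeatable liver genes lie highest in each, with medians of 0.692, 0.651, 0.465 and 0.493.

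Single genes differed in how far their order crossed tissues. The STX3 level of LCLF livers correlated with that of HCHF adipose tissue at a rho of 0.680, and the HCHF liver level with LCLF adipose tissue at 0.646. In the same order of directions these values were 0.510 and 0.330 for MX1, 0.512 and 0.249 for OAS1, and 0.0182 and 0.153 for IFIT2. The SC5D level was repeatable in muscle (0.434) and adipose tissue (0.539) as in liver (0.550), but that of LCLF livers correlated with HCHF muscle at -0.121 and with HCHF adipose tissue at 0.0206, and that of HCHF livers with LCLF muscle at 0.135 and with LCLF adipose tissue at 0.188. CD14 had a rho of 0.767 in liver, 0.118 in adipose tissue, 0.0127 from LCLF liver to HCHF adipose tissue, and 0.219 from HCHF liver to LCLF adipose tissue. An animal's rank on SC5D was thus kept within each tissue with little correlation between tissues, whereas on STX3 it was partly shared, and on interferon-stimulated genes this varied.

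Some of the most repeatable genes lie side by side in the genome. By the order of genes in the RefSeq annotation of Panubis1.0, 20 of the 200 formed 10 pairs of direct neighbours, 2 of them with overlapping spans. The share of such neighbours among all genes tested was not counted, so no excess is read from this count. SEZ6L2 and ASPHD1 are such a pair, and their levels correlated across animals at a rho of 0.910 in HCHF and 0.910 in LCLF livers. RDH16, a retinol dehydrogenase, and LOC116268882 correlated at 0.785 and 0.794, and ARSD, a sulfatase, and GYG2, a glycogenin, at 0.631 and 0.680. Not all pairs correlated so, and both with overlapping spans were low. LOC100997246 correlated with LOC116268577 at 0.254 in HCHF and 0.276 in LCLF livers, and LOC101022333 with LOC116272784 at 0.110 and -0.0847. LOC101002304 with PRSS45P and LOC101008605 with LOC101017987 lay between 0.893 and 0.929. USP9Y and DDX3Y form a pair, as do LOC116272386 and LOC116272403, and all split the animals into 50 and 34. LOC100997237, next to LOC116272145, split them in reverse. For these pairs no correlation over all animals is given. The sources used here do not state whether counting used strand, and reads of overlapping or adjoining genes may not be separated.

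The difference in repeatability between tissues was tested gene by gene, by swapping the liver and other tissue values within animals. Against muscle (80 animals, 7843 genes) 2 genes (0.0255%) were less repeatable in liver and 0 (0.0%) were more so, with 928 less and 157 more so at an unadjusted p under 0.05 and a median difference of -0.0945 (liver minus muscle) over all genes. ACAA1, the peroxisomal thiolase of fatty acid breakdown, had a rho of 0.0963 in liver and 0.767 in muscle, and PGM5 one of -0.0200 in liver and 0.714 in muscle (adjusted p = 0.0392 for both by the permutation test). The 67 animals of batch 2 gave 0 genes in either direction, and so did TMM scaling over the same 80 animals. Against adipose tissue (82 animals, 9168 genes) 13 genes (0.142%) were more repeatable in liver and 0 (0.0%) were less so, with 556 more and 280 less so at an unadjusted p under 0.05 and a median difference of 0.0165 (liver minus adipose tissue). The batch 2 animals gave 3 and TMM scaling 9. The 13 were MYRIP, NEK1, PLN, CBLN3, ITGA11, PLA2G1B, B3GNT7, SYK, SMC2, MSH6, GJB2, ANGPTL4 and GSPT2, of which all but NEK1, PLA2G1B, SMC2, MSH6 and GSPT2 are among the 200 most repeatable in liver. CBLN3 had a rho of 0.904 in liver and 0.213 in adipose tissue (adjusted p = 0.0204), and ANGPTL4 0.783 in liver and 0.0839 in adipose tissue (adjusted p = 0.0275). PLN, which restrains the calcium pump SERCA, had 0.798 and 0.0529, and SYK, a tyrosine kinase of immune receptors, 0.843 and 0.242 (adjusted p = 0.0115 for both).

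A gene can hold its individual order and still shift on average, so edgeR's quasi-likelihood test, blocked by animal, was run on the average change. Of the 200 most repeatable genes 23 (11.5%) were higher and 77 (38.5%) lower in HCHF than in LCLF livers, and of 195 tested among the least repeatable 64 (32.8%) were higher and 33 (16.9%) lower. Over the 9888 genes with a correlation these shares were 16.2% and 34.4%, and over all 14919 genes tested 22.3% and 27.1%. Without the animal block 10 of the most repeatable genes were higher and 18 lower. In that setting 59 and 30 of the 195 least repeatable genes and 2743 and 2434 of all 14919 genes were. The block takes out levels of animals that repeat, and this repeatability chose the sets. The blocked counts of the sets are thus tied to their choice and are a description. The log2 fold change was -0.14 ± 0.06 (SE) for LPA, with medians of 154 CPM in HCHF and 177 CPM in LCLF livers, and the adjusted p was 0.0271. For SOAT2 it was -0.14 ± 0.08 (adjusted p = 0.138). CBLN3 was lower (-0.60 ± 0.08, rho = 0.906) and SEZ6L2 higher (0.68 ± 0.13, rho = 0.928) in HCHF livers.

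Average shifts were also found among genes of middling and low repeatability. SC5D was lower in HCHF livers (-0.48 ± 0.06, rho = 0.550), as was FDFT1 (-0.24 ± 0.04, rho = 0.239). FADS2 was higher (1.047 ± 0.21, rho = 0.435), as were CD5L (1.32 ± 0.10, rho = 0.444) and MARCO (1.27 ± 0.10, rho = 0.383). CHIT1, a chitinase of activated macrophages, had 0.178, 6.49 and 101 CPM at the lowest, median and highest in HCHF livers, against 0, 0.422 and 15.2 CPM in LCLF livers. Its log2 fold change was the largest of these, 3.65 ± 0.23, and its rho was 0.0702 (adjusted p = 0.533 by the permutation test). It reached a mean of 5 CPM through the HCHF livers alone, so this rho rests on LCLF values near 0 and says little of the order of animals. Counting error would give 4.90% of its variance between animals. KLF2 (0.53 ± 0.10) and DPYSL3 (0.75 ± 0.11) were also higher in HCHF livers, with a rho that did not pass, and ATF3 (0.11 ± 0.15, adjusted p = 0.558) and ELOVL6 (-0.35 ± 0.18, adjusted p = 0.0982) did not pass the test of the average change.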

How the data were processed

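Raw read counts per gene, as whole numbers, were deposited by the authors in 2 tables, of 588 libraries and of the 570 left after their quality control, and shared values were identical. The submitters' processing notes list the tools FastQC, featureCounts and STAR 2.7.7a. Settings, genome build and use of strand: not given in the sources used here. Columns carry animal, tissue and time in their names. No label assigns animals to library batches, so the 16 animals listed first in the series were taken as batch 1. The first axis of mean expression (23.4% of the variance) separated the same 16 from the other 83.

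Counts were divided by the library total, expressed as CPM and transformed as log2(CPM + 0.5), and centred within time and library batch. Genes with a mean of at least 5 CPM were correlated across animals (Spearman, and Pearson beside it) and tested two-sided with 100000 permutations of animals within library batch, adjusted by Benjamini-Hochberg over all genes tested, with Python 3.11.15, numpy 2.4.6, scipy 1.17.1 and numba 0.67.0. Only animals were treated as independent, and relatedness among them is not given in the labels. Tissue differences were tested by swapping tissues within animals. The average change was tested on the counts by edgeR 4.0.16 (quasi-likelihood, TMM, filterByExpr with a minimum count of 10) in R 4.3.3, with the animal as a block, since libraries of 1 animal are paired by the animal named in the labels. As a check of the pairing, profile correlations of the same animal are given with the results. DESeq2 1.42.0 and limma 3.58.1 served as alternatives. The Spearman permutation test, the tissue swap and the edgeR test were checked on simulated data. There, genes were independent, library batches did not differ, and the tissues of an animal were drawn independently. The Pearson test, DESeq2 and limma were not checked so.

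Intervals of depth are not given per value. Counting error is stated as the share of a gene's variance that Poisson counting would give, which covers counting error only. Marker scores for leaving out animals were taken relative to the median of the animal's batch, and clusters were sought on values that were not centred.

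The members, the 32 gene lists (584 of 737 entries in the table, 495 tested) and the tests were chosen with earlier results of these data known. The text names, among genes with a symbol, the 15 with the highest rho without clusters, up to 12 with clusters, the 12 with the lowest rho above the upper quartile of SD, up to 3 highest and 2 lowest of each list, and 21 tested of 28 anchor genes, 170 in all, of which those not described are not reported here. Genes at the edge of a set, neighbours and genes with a tissue difference were added. RefSeq symbols of Panubis1.0 matched 99% of the genes and were used for neighbours and gene types.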

Additional observations from a re-analysis of the deposited data

Results flagged for a closer look

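The results listed here were picked out because the repeatability of a gene differed between liver and another tissue of the same animals by a test of the difference itself (two-sided permutation test that swaps the tissues within animals, Benjamini-Hochberg adjusted over all genes). The value given is the rho in liver minus that in the other tissue. Against muscle (80 animals) it was -0.671 for ACAA1 and -0.734 for PGM5, and neither passed in batch 2 alone or with TMM scaling over the same animals, where the count was 0. A lone gene at the smallest p of the permutations could not pass there, so these counts do not show that the differences were absent. Against adipose tissue (82 animals) it was 0.792 for B3GNT7, 0.752 for PLA2G1B, a secreted phospholipase, 0.745 for PLN, 0.732 for NEK1, a kinase, 0.723 for MYRIP, 0.703 for MSH6, a mismatch repair protein, 0.699 for ANGPTL4 and 0.691 for CBLN3. It was 0.638 for SMC2, a condensin subunit, 0.631 for GSPT2, a translation termination factor, 0.621 for ITGA11, a collagen-binding integrin, 0.601 for SYK and 0.547 for GJB2, connexin 26. Adjusted p-values ranged from 0.0115 to 0.0423 among the adipose differences and were 0.0392 for both muscle ones. Batch 2 alone gave a count of 3 against adipose tissue, and which genes these were was not compared.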

How the results depend on the processing

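Of the alternatives, run over 13 to 96 animals, 13 of 16 alternatives kept the count of repeatable liver genes within 1.5 times of 8844. The other counts were 5000 with a mean of at least 20 CPM, 14074 with no filter and 613 in the 13 batch 1 animals, where fewer genes or animals were tested or, with no filter, more genes. Negative genes numbered 14 with no filter and 1 each in batch 1, in the table of all 588 libraries and after removal of 5 principal components. The median rho lay between 0.317 and 0.429 under the 16 alternatives. At a mean of at least 1 CPM, where more genes were tested, 16 genes were more and 12 less repeatable in liver than in muscle, and 34 more and 7 less than in adipose tissue. The 2 genes less repeatable than in muscle became 0 with TMM and 0 in batch 2, and the 13 more repeatable than in adipose tissue became 3 in batch 2. The number of permutations limits such counts, since a lone gene at the smallest p could not pass. The cause of the change with TMM was not tested. Without the animal block (the pairing of libraries of 1 animal), 2434 of all genes were lower in HCHF livers rather than 4044, and of the most repeatable genes 10 were higher and 18 lower. DESeq2 without the block gave 2503, 11 and 20, and limma-voom with no filter on low counts gave 9735 lower genes. The counts of the least repeatable genes and of all genes higher in HCHF livers moved by less than 1.5 times. Of 1543 alternative values of 99 named genes, 1361 moved by less than 0.11, the SD of a correlation of 84 unrelated values, and 179 by more. Among named genes that were repeatable, the sign of 3 turned, in batch 1 alone, at -0.192 for FDFT1, -0.390 for FOS and -0.170 for EGR1. Of the 28 named genes that were not, 19 turned sign in at least 1 alternative, so no sign is read from them. Depth limits the low genes, and no statement is made on repeatability under a mean of 5 CPM. An adjusted p above 0.05 does not show that a gene has no individual level, and with 13 animals batch 1 can show only strong correlations.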
